A study of Mus musculus with 4 samples.

Results

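The genes described here are 10 mouse genes that remove peroxides, make or use glutathione, or belong to the NRF2 antioxidant programme: Gpx4, Gclc, Mgst1, Hmox1, Nqo1, Nfe2l2, Prdx3, Prdx5, G6pdx and Fth1. They were chosen by symbol from the authors' sheet of called probes, which named 8519 genes, and each of the 10 had 1 named probe. Expression was read on 4 single-colour arrays of 26423 probes, hybridised with Cy5-labelled RNA from C17.2, a mouse multipotent neural progenitor cell line. All cultures received 7.38 mM AAPH, an azo compound that releases peroxyl radicals, for 12 h. The first group had AAPH alone (2 arrays) and the other had AAPH together with 1.69 µM berberine, a plant alkaloid (2 arrays), so every comparison is between cells that were all exposed to AAPH. The labels do not say whether the 2 arrays of a group came from separate cultures. The p-values therefore measure only the spread between these arrays, which may be technical.

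Cells clear lipid peroxides and hydrogen peroxide with glutathione peroxidases and peroxiredoxins. The former draw on glutathione and the latter mostly on thioredoxin, and NADPH keeps both in their reduced form. NRF2, the protein of Nfe2l2, is held in the cytoplasm and degraded through KEAP1 until oxidants or electrophiles modify KEAP1. It then pairs with small MAF proteins on antioxidant response elements near genes such as Nqo1, Hmox1 and Gclc. Loss of GPX4 activity lets phospholipid peroxides build up and leads to ferroptosis, a form of cell death that depends on iron, which is why the iron store ferritin is usually discussed with these enzymes.

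All 10 genes had a lower probe signal in the cells given berberine than in the cells given AAPH alone, and all 10 passed at an adjusted p under 0.05 in a limma fit over all probes. Gpx4, Gclc, Mgst1, Prdx3 and Nqo1 dropped from detected signals to values that the authors' detection test did not separate from background at a p-value of 0.01. G6pdx, Prdx5, Nfe2l2 and Hmox1 fell and stayed detected. Falls to background allow only bounds and are not ranked against the measured ones. Fth1 stayed among the brightest probes of every array, and its direction depended on how the arrays were scaled. Over all 26423 probes the same test called 62.7%, of which 22.5% of all probes were lower and 40.2% higher, and among the 10038 probes with a mean of at least 800 in the AAPH group, which takes in all 10 genes, it called 83.4%, with 40.9% lower and 42.5% higher. The names exist only because the authors had already called these probes changed on the same arrays. Among the 8519 named genes 99.7% passed and 44.1% were lower, so the passing of the 10 genes, and their direction and size on the same arrays, are described here and are no independent evidence.

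**Figure D1:**
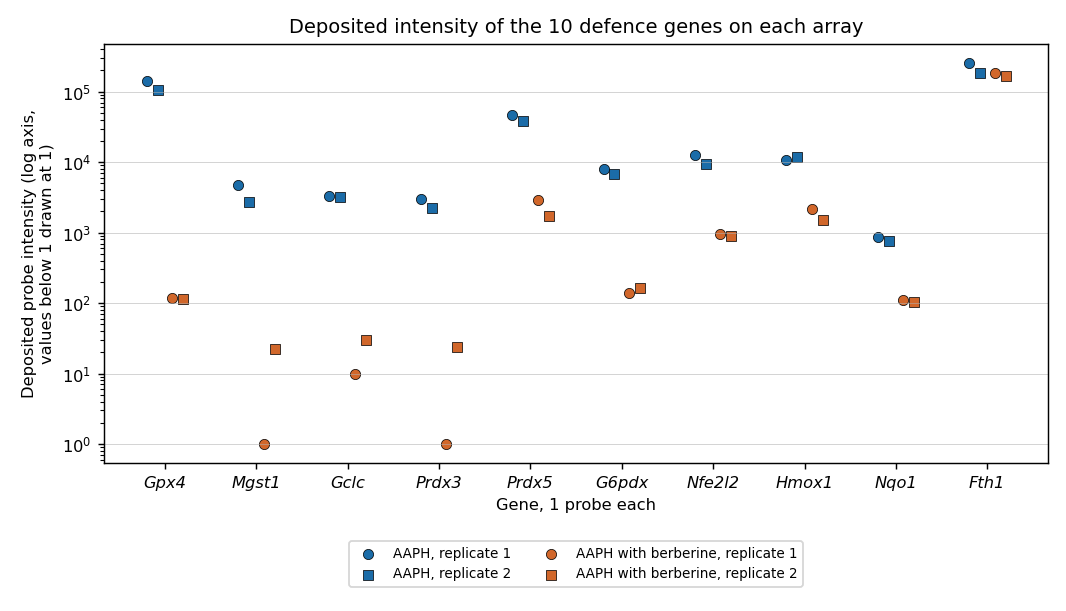
Deposited probe intensity (log axis, values below 1 drawn at 1) of the 10 defence genes on each of the 4 arrays. Blue points are the 2 AAPH arrays and orange points the 2 arrays of AAPH with berberine. Both orange points lie below both blue points for each gene, by a narrow margin for Fth1 (184178 against 184300).

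The sequences shown are upstream regions that hold the core of the antioxidant response element, because several of the 10 genes are known NRF2 targets. RefSeq promoter windows of assembly GRCm38.p6 were found for 8 of the 10 genes (13 windows), and Gclc and Hmox1 had none. The motif searched was TGACNNNGC on both strands within the 250 bases upstream of the annotated start. It occurred in 1 window each of Nfe2l2, Mgst1 and G6pdx, thus in 3 of 13 windows, against 10.2% of all 32851 windows of that length. In Nfe2l2 (chr2:75704664-75704913, minus strand) the match began 240 bases before the start. In Mgst1 (chr6:138140277-138140526, plus strand) and G6pdx (chrX:74428881-74429130, minus strand) it lay on the opposite strand, 56 and 57 bases before the start. The regions are given 5′ to 3′ along the gene's strand, and capitals mark the match.
Nfe2l2: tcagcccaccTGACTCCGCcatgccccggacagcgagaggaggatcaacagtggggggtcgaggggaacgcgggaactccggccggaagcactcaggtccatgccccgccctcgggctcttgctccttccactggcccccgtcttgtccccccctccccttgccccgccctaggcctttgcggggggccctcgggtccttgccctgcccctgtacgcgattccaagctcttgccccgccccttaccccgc
Mgst1: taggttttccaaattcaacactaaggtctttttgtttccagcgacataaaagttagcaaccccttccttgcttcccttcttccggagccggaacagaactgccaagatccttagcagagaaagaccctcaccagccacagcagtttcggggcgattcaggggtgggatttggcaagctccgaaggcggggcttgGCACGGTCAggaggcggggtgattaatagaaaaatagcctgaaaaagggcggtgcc
G6pdx: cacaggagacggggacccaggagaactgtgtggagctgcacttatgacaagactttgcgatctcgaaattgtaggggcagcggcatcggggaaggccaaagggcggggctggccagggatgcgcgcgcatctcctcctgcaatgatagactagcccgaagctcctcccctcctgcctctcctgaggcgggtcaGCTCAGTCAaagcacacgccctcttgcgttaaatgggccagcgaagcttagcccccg
A match of these letters is a description of the sequence and not a measured binding site, and NRF2 elements of other target genes can lie farther upstream than the window.

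Gpx4 encodes the selenoprotein that reduces phospholipid hydroperoxides inside membranes with glutathione. Its probe read 140195 and 103994 on the AAPH arrays, against 120 and 115 with berberine. The groups are far apart, and the berberine values lie close together. In the limma fit the normalized log2 level went from 17.12 ± 0.10 to 7.06 ± 0.27 (SD, n = 2 per group), a log2 change of −10.05 ± 0.184 (SE, adjusted p = 0.000186). In the authors' deposited sheet the detection p-value of this probe was 0.0123 with berberine. A probe is called not detected here when that p-value is 0.01 or more. A fold against such a group is given as a bound, with each dim array taken at the probe's own value or, if higher, at the lowest value of a detected probe. Undetected probes can read above that lowest value, as Gpx4 did on berberine replicate 2 (6.87 against 6.81, normalized log2). Folds given as "at least" follow this rule and are no strict lower limits. Such bounds are on the quantile-normalized scale and shift with the scaling. A p-value given with a bound belongs to the fitted change and not to the bound. For Gpx4 the rule gives 1044-fold, close to its own fitted fold, because its berberine values lie near the lowest detected value. That figure is no lower limit across scalings, since the fold was 1028 on the values as deposited and the log2 change was −9.39 after median centring. Of the 113 probes with a mean of at least 100000 in the AAPH group, Gpx4 was the 1 probe that read below 200 on both berberine arrays. Of the same probes 87 stayed at or above 100000 on both. That standing depends on the limits, since Gstp1 read 98212 and 79296 with AAPH and 149 and 185 with berberine. Ngfrap1 and Tnfrsf12a, also under the limit of 100000 with AAPH, likewise read below 200 with berberine. Over all probes 17, Gpx4 among them, had a fitted fall at least as large as that of Gpx4.

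Mgst1 and Gclc serve the glutathione side of the defence. Mgst1, a membrane-bound glutathione transferase of the endoplasmic reticulum and outer mitochondrial membrane that also reduces lipid hydroperoxides, read 4688 and 2679 with AAPH alone. With berberine it read −7 and 22, a level without measurable signal. It was at least 19.6-fold lower. The fitted log2 change was −9.24 ± 0.25 (adjusted p from limma 0.000194). On the values as deposited the error was wider, with −9.56 ± 1.62 (adjusted p = 0.0189, limma). The AAPH arrays themselves were uneven for this probe (3684 ± 1421, SD, n = 2), more so than for the other 9 genes relative to the mean. Gclc encodes the catalytic subunit of glutamate-cysteine ligase, the rate-limiting step of glutathione synthesis. It read 3347 and 3179 with AAPH and 10 and 30 with berberine, at least 17.6-fold lower. The adjusted p from limma was 0.000186, and 0.00287 on the values as deposited. In the authors' deposited sheet the detection p-values with berberine were 0.992 for Mgst1 and 0.959 for Gclc, the sheet's log2 ratio for Gclc stands at its floor of −6.64, and for Mgst1 it gives none.

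The peroxiredoxins reduce hydrogen peroxide through a reactive cysteine. Prdx3 resides in the mitochondrial matrix. It read 2952 and 2200 with AAPH and 1 and 24 with berberine, at least 13.3-fold lower. The fitted log2 change was −8.51 ± 0.175 (adjusted p = 0.000186, limma), and −9.02 ± 1.64 on the values as deposited (adjusted p = 0.0225, limma). As for Mgst1, the berberine arrays gave no signal above background (detection p-value 0.986 in the authors' deposited sheet), and the authors' deposited sheet gives no ratio. Prdx5 is found in mitochondria, peroxisomes and cytosol, and it stayed measurable in both groups. Its intensities were 46440 and 38166 with AAPH, against 2938 and 1703 with berberine. That is a log2 change of −4.07 ± 0.204 (16.8-fold lower, adjusted p = 0.000535, limma), far beyond the gap between arrays of 1 group. Both genes thus moved the same way, although the berberine arrays allow a measured fold for Prdx5 and only a bound for Prdx3. The family did not move as a whole. Prdx1 was higher (log2 change 1.99 ± 0.161), while Prdx2 (−1.44 ± 0.146) and Prdx4 (−1.37 ± 0.149) were lower. On the values as deposited all of these lost their call (adjusted p from limma 0.063, 0.08 and 0.0711).

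G6pdx encodes glucose-6-phosphate dehydrogenase, which opens the pentose phosphate pathway and supplies NADPH for glutathione and thioredoxin reduction. Its probe read 8015 and 6786 with AAPH and 140 and 163 with berberine. The log2 change was −5.22 ± 0.112 (37.3-fold lower, adjusted p = 0.000186, limma). The berberine values lay close to the background, with a detection p-value of 0.00656 in the authors' deposited sheet, just inside the limit used here.

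Nfe2l2 and its textbook targets Hmox1 and Nqo1 were each lower. They do not stand for the wider antioxidant lists described below, whose other named genes were lower in 46 cases and higher in 46. Nfe2l2 read 12519 and 9503 with AAPH and 954 and 899 with berberine, a log2 change of −3.00 ± 0.120 (8.01-fold lower, adjusted p = 0.000365, limma). Hmox1 encodes haem oxygenase, which breaks haem into biliverdin, carbon monoxide and iron and is induced by oxidants in many cell types. It read 10816 and 11947 with AAPH and 2171 and 1514 with berberine, and it fell by 2.20 ± 0.238 on the log2 scale (4.58-fold, adjusted p = 0.00285, limma). Hmox1 remained well detected in both groups, so its change rests on measured values on all 4 arrays. Nqo1, which reduces quinones without releasing semiquinone radicals, read 872 and 770 with AAPH and 110 and 105 with berberine. It was at least 4.40-fold lower (adjusted p = 0.00155, limma), and its detection p-value with berberine was 0.024 in the authors' deposited sheet. With a limit of 0.05 instead of 0.01, an alternative added after the data were seen, Nqo1 and Gpx4 count as detected and their fitted folds of 4.90 and 1062 apply.

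**Figure D2:**
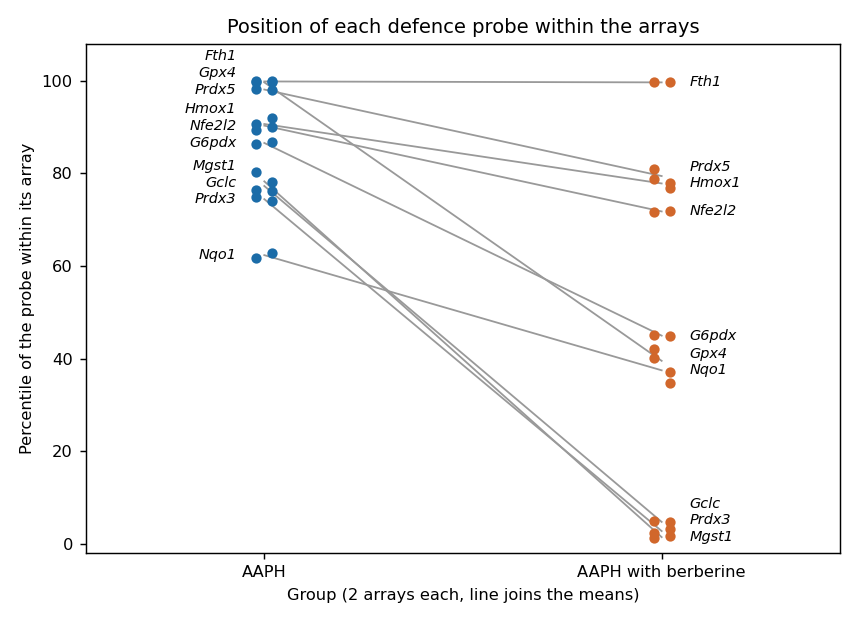
Percentile of each defence probe among all 26423 probes of its own array, a position that no scaling of an array changes. Blue points are the AAPH arrays, orange points the arrays of AAPH with berberine, and lines join the group means. Gclc, Prdx3 and Mgst1 move from percentiles between 74.0 and 80.4 to between 1.16 and 4.77, while Fth1 stays at 99.7 or above.

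The position of each probe within its own array can be given without any normalization. Quantile normalization keeps the order of probes within an array, so these percentiles restate the normalized values and are no separate check on them. A probe's percentile depends on its own brightness, so it was compared only between arrays. Gpx4 went from percentile 99.7 on both AAPH arrays to 42.0 and 37.0 with berberine. Prdx5 moved from 98.2 and 98.1 to 81.0 and 77.9. Hmox1 moved from 89.4 and 92.0 to 78.8 and 76.9, Nfe2l2 from 90.7 and 90.0 to 71.7 and 71.9, and G6pdx from 86.4 and 86.8 to 45.1 and 44.8. Of the 10 genes, 9 thus held a clearly lower rank on both berberine arrays, with Nqo1 passing from 61.8 and 62.9 to 40.2 and 34.7. For 10 of 10 genes both berberine arrays lay below both AAPH arrays in deposited intensity, an ordering that 31.6% of all probes showed. After normalization the ordering was again met by 10 of 10, against 29.1% of all probes. Both shares are over all probes, whereas the 10 genes were taken from probes the authors had called. Among the named genes of those probes 44.1% passed as lower in the limma fit.

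Fth1, the ferritin heavy chain that oxidises and stores iron, was the exception in size. It read 254767 and 184300 with AAPH and 184178 and 167880 with berberine. The groups barely separate, and the gap between the AAPH arrays is larger than that between the nearest arrays of the 2 groups. After quantile normalization the log2 change was −0.70 ± 0.127 (1.62-fold lower, adjusted p = 0.0121, limma). On the values as deposited it was −0.30 ± 0.271 (adjusted p = 0.463, 95% interval −1.05 to 0.45), and with arrays centred on their medians it turned to 0.31 (adjusted p = 0.233). The call was also lost when AAPH replicate 1 (adjusted p = 0.0631), AAPH replicate 2 (0.0545) or berberine replicate 2 (0.0591) was left out. The authors' deposited table gives a log2 ratio of −1.07 for Fth1, whereas the group means in the same deposited table, 218113 and 176322, correspond to −0.31. Among the 113 probes with an AAPH mean of at least 100000 the median log2 change was −0.22, with 43 called lower and 10 higher. For this gene no direction holds under every scaling.

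**Figure D3:**
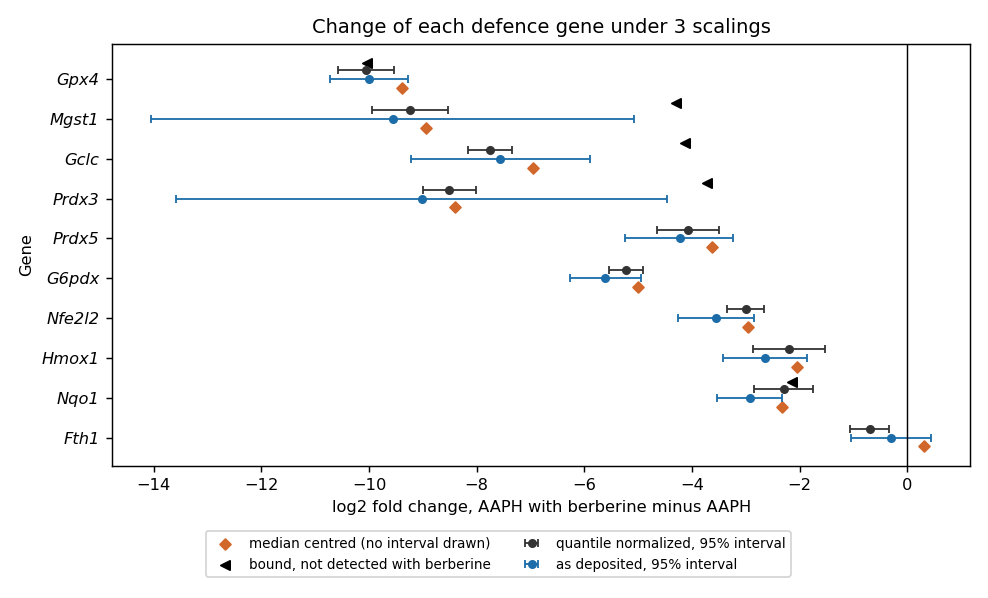
Log2 fold change (AAPH with berberine minus AAPH) of each defence gene after quantile normalization, on the values as deposited (both with 95% intervals from limma) and after median centring; arrowheads give the bound for the 5 genes not detected with berberine. For 9 genes all 3 scalings lie below 0, and for Fth1 the median-centred value is 0.31.

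The other 9 genes kept their direction and their call under each alternative that returned a value for them. Alternatives in the probe used could not change them, since each gene had 1 named probe. The bounds were not fitted anew and keep the call of the main fit. The median log2 change of the 10 was −4.65, or −3.90 with the 5 genes not detected with berberine at their bound. Over all probes the median was 0.39 with quantile normalization, 0.74 with median centring and 0.13 with no normalization, and over all named genes it was 1.22. On the values as deposited 9 of the 10 genes passed, where 33.2% of all probes passed and the split turned to 19.8% lower and 13.4% higher. Among the 8519 named genes, the closer comparison for these 10, 3685 passed as lower and 2653 as higher on those values. There Nfe2l2 changed by −3.56, Hmox1 by −2.65 and Nqo1 by −2.93 on the log2 scale, somewhat more than after quantile normalization, and their adjusted p-values from limma were 0.00224, 0.00614 and 0.00253. Each gene had 1 named probe, so a change of signal at the probe and a change of the whole transcript cannot be told apart. By the prefix of its identifier, 7 of the 10 probes belong to a series (mMC) in which 56.8% of named genes were lower, 1 to another (mMR) with 59.7% and 2, those of Nfe2l2 and Fth1, to the PH_mM series with 34%. The part of the probe series in these results was not tested.

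**Figure D4:**
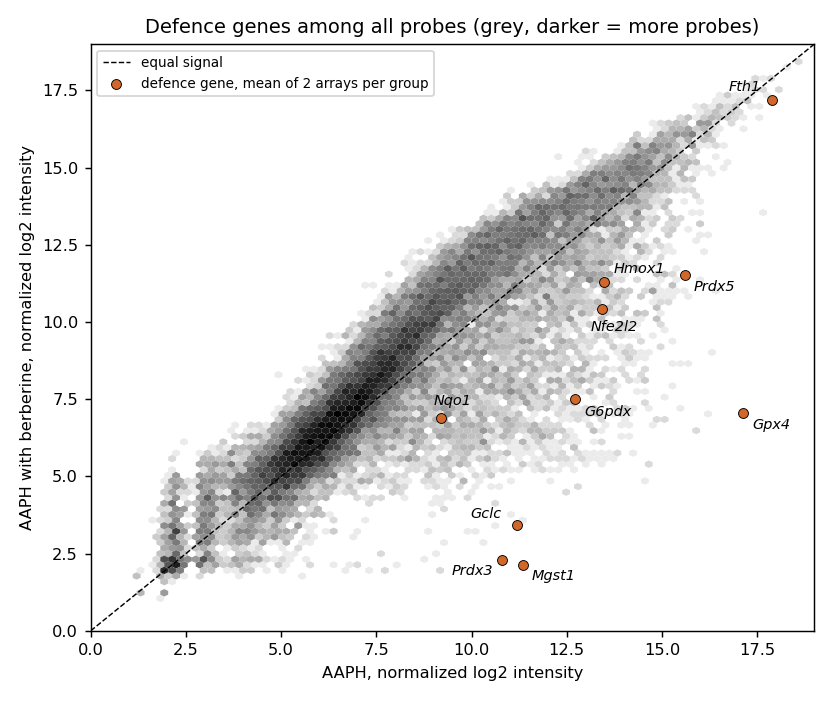
Mean normalized log2 intensity of every probe in the AAPH group (x axis) and in the group of AAPH with berberine (y axis), with the 10 defence genes in orange and the dashed line marking equal signal. All 10 lie below the line, from Fth1 close to it (17.89 against 17.19) to Gpx4 far below it (17.12 against 7.06).

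Wider lists of the same pathways did not move in 1 direction. Lists for 8 functions held 192 genes, of which 102 had a named probe and all 102 passed, 56 lower and 46 higher. Without the 10 genes above, the remaining 92 divided into 46 lower and 46 higher, with a median log2 change of 0.08. That is 50% lower and 50% higher, beside 44.1% lower and 55.6% higher over all named genes, which had a median of 1.22. With no normalization 43 of the 92 passed as lower and 35 as higher. The remaining named genes of these pathways were thus higher as often as lower after quantile normalization. Listed genes without a named probe, among them Gclm, Gsr, Slc7a11, Txnrd1, Srxn1 and Keap1, were not analysed here.

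**Figure D5:**
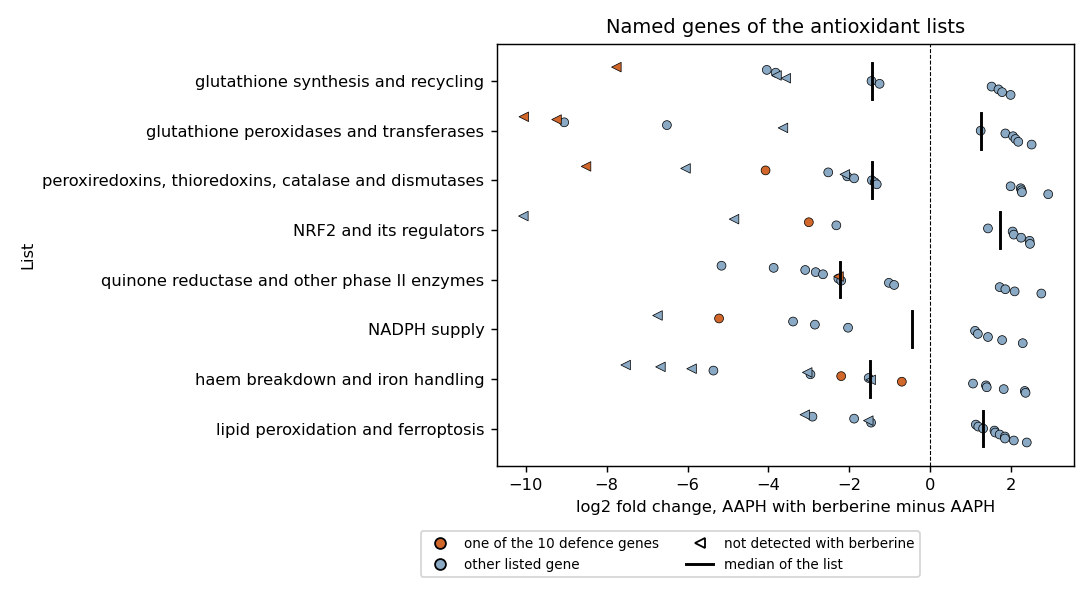
Log2 fold change (AAPH with berberine minus AAPH) of each named gene in 8 antioxidant lists, each gene by its brightest probe. Orange marks the 10 defence genes, arrowheads genes not detected with berberine and the black bar the median of a list. Each list has genes on both sides of 0, with medians from −2.23 to 1.74.

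In glutathione synthesis and recycling 7 of 11 named genes fell and 4 rose (median −1.45, or −1.25 with undetected genes at their bound), and 6 and 2 passed on the values as deposited. Beside Gclc, the transpeptidase Ggt1, which starts the breakdown of extracellular glutathione, fell by 4.04 ± 0.112 on the log2 scale. Cth, which makes cysteine from cystathionine, fell by 3.82 ± 0.112. The dithiol reductase Glrx, which removes glutathione from proteins, rose from 5892 and 4898 to 21737 and 16464, and Cbs, the step before Cth, rose by 1.69 ± 0.114. The rise of Oplah, the 5-oxoprolinase (1.52 ± 0.115), lost its call on the values as deposited (adjusted p = 0.11, limma). The entry and exit steps of cysteine synthesis thus had opposite signs in these arrays.

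Among glutathione peroxidases and transferases 5 of 11 fell and 6 rose (median 1.25). The falls were the larger ones. Gstp1, the pi-class transferase, read 98212 and 79296 with AAPH and 149 and 185 with berberine (529-fold lower, adjusted p = 0.000186, limma). Its berberine signal counted as detected but lay near that of G6pdx (140 and 163), close to the background, which limits the precision of this fold. Gsto1, of the omega class, read 161718 and 150098 and then 1682 and 1192, or 91.0-fold lower. The rises were smaller, with Gstm7 going from 661 and 571 to 2301 and 1534, Gstk1 from 343 and 275 to 728 and 718, and Gstt1 from 721 and 603 to 1357 and 1435. Summed over the 11 probes, the signal was 342470 to 412595 on the AAPH arrays and 10917 to 14407 with berberine, a sum set mostly by its brightest probes, while by number 6 rose and 5 fell, or 5 and 5 on the values as deposited.

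Among peroxiredoxins, thioredoxins, catalase and dismutases 10 of 15 fell and 5 rose (median −1.44). Beside Prdx3 and Prdx5, Msrb3, a methionine sulfoxide reductase, was at least 31.1-fold lower. Sepw1, the small selenoprotein W, rose from 11733 and 8231 to 97959 and 76586 (log2 2.92 ± 0.154, adjusted p = 0.000589, limma). Msra, the partner reductase for the other sulfoxide form, rose by 2.27 ± 0.109. Cat, the peroxisomal catalase, rose from 103 and 106 to 326 and 338. It was not detected with AAPH alone, and its log2 change was 2.24 after quantile normalization (adjusted p = 0.000572, limma) and 1.67 on the values as deposited (adjusted p = 0.00935, limma). The selenoprotein genes Gpx4 and Sepw1 thus had opposite signs.

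For NRF2 and its regulators 4 of 10 fell and 6 rose (median 1.74). Sqstm1, the autophagy receptor p62 that binds KEAP1, was at least 188-fold lower and read 22 and 35 with berberine after 24238 and 20676. Maff, a small MAF partner of NRF2, was at least 26.6-fold lower. Bach2, a repressor that shares the MAF partners, rose by 2.46 ± 0.117. Brca1, whose protein has been described as binding NRF2, rose by 2.25 ± 0.120. Btrc, the F-box protein that marks NRF2 for degradation independently of KEAP1, rose by 2.07 ± 0.117. Of the quinone reductase and phase II list 10 of 14 fell and 4 rose (median −2.23), among the falls the aldehyde reductase Akr7a5 (−3.87 ± 0.180), the glutathione conjugate exporter Abcc1 (−2.83 ± 0.133) and the carboxylesterase Ces1g (−2.65 ± 0.111). The nucleotidase Entpd5 of the endoplasmic reticulum rose by 2.75 ± 0.135, the conjugate exporter Abcc2 by 2.09 ± 0.153 and Osgin1, an oxidative stress response gene, by 1.86 ± 0.110.

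NADPH supply divided evenly, with 5 of 10 lower and 5 higher (median −0.46). The pentose phosphate isomerase Rpia fell by 3.39 ± 0.113 and the cytosolic isocitrate dehydrogenase Idh1 was at least 36.5-fold lower. H6pd, which makes NADPH inside the endoplasmic reticulum, rose by 2.29 ± 0.120 and the malic enzyme Me1 by 1.11 ± 0.135. The pentose phosphate epimerase Rpe rose by 1.78 ± 0.220, a call lost on the values as deposited (adjusted p = 0.14, limma). G6pdx and H6pd, which catalyse the same first step in cytosol and endoplasmic reticulum, thus moved in opposite directions.

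In haem breakdown and iron handling 10 of 16 fell and 6 rose (median −1.49, or −1.15 at the bound). The transferrin receptor Tfrc read 28873 and 23517 and then 121 and 153, at least 183-fold lower. The probes for both iron regulatory protein genes read lower, Ireb2 at least 43.2-fold and Aco1 at least 30.7-fold. The iron transporter Slc11a2 rose by 1.40 ± 0.120 and Hfe, which binds the transferrin receptor, by 2.34 ± 0.133. Fech, the last enzyme of haem synthesis, rose by 1.38 ± 0.110 on its brightest probe, but its other named probe was lower. For lipid peroxidation and ferroptosis more genes rose after quantile normalization, with 5 of 15 lower and 10 higher (median 1.31). Over all named genes 55.6% passed as higher and the median was 1.22, so this list lay near the whole. On the values as deposited 5 passed as lower and 6 as higher. Acsl4, which joins polyunsaturated fatty acids to coenzyme A, fell by 2.91 ± 0.109 and the prostaglandin synthase gene Ptgs2 fell by 1.88 ± 0.149. Secisbp2, which binds the selenocysteine insertion element of selenoprotein messages, was at least 7.65-fold lower, whereas the elongation factor for selenocysteine Eefsec rose by 2.07 ± 0.117. Pstk, the kinase in selenocysteine synthesis, rose by 1.72 ± 0.129 and lost its call on the values as deposited (adjusted p = 0.051, limma). Of 6 listed genes with several named probes, 3 (Acsl3, Fech and Nqo2) had probes that moved in opposite directions.

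The named genes whose normalized log2 values over the 4 arrays lay nearest to those of Gpx4, by Euclidean distance among 8518 genes, were Ngfrap1 (1.06), Gstp1 (1.08) and Tnfrsf12a (1.35). Each was bright with AAPH and below 200 with berberine, and Gstp1 was the only one of these 3 in the lists above. For Hmox1 the nearest were Nacc1 (0.35), Elf2 (0.39) and Ythdf1 (0.40), none of them in the lists. With 4 arrays such distances describe level and change of probe signal and nothing more.

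In the sheets deposited by the authors, 45 of 406 biological process terms listed at least 1 of the 10 genes, and 16 of these 45 had a Benjamini q-value under 0.05. The oxidation-reduction process term held 8 of the 10, all but Gclc and Nfe2l2, with 309 of its 676 genes called (q = 0.0447). Response to oxidative stress held 7 (68 of 133 genes called, q = 0.31), and cell redox homeostasis held Gclc, Nfe2l2, Prdx3 and Prdx5 (37 of 65, q = 0.318). By the authors' deposited enrichment, the terms closest to the function of these genes thus stood at or above a q-value of 0.0447. Those q-values rest on the calls of either direction from the same arrays.

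Of facts of the arrays that touch these values, the median intensity was 333 and 273 with AAPH and 189 and 206 with berberine, while the 99th percentile was 66711 and 54628 against 96496 and 83026. Neural progenitor markers Nes and Sox2 had no named probe here, so the cell type could not be checked against them. Of 16 listed progenitor markers 6 were named, 4 lower (Sox9, Hes1, Bmi1 and Id2) and 2 higher (Msi1 and Prom1), and their summed intensity was 17959 to 20766 with AAPH and 4005 to 4367 with berberine. All 6 named of 10 astrocyte markers and all 7 named of 10 oligodendrocyte lineage markers were higher, with summed intensities of 4335 to 5395 and 24458 to 30108 with AAPH and 7435 to 8497 and 68439 to 84758 with berberine. The oligodendrocyte sums came mostly from Sox10 and Mog. On the values as deposited 1 of the 6 and 3 of the 7 passed, and Msi1 lost its call. Of the 12 listed neuron markers 8 were named, 3 lower and 5 higher, which turned to 3 lower and 2 higher on the values as deposited. Their summed intensity was 24180 to 29389 with AAPH and 37275 to 38550 with berberine. With berberine that sum was set mostly by Nefm, which read 6500 and 5825 with AAPH and 30175 and 32159 with berberine. Of 8 microglia markers 4 were named, 2 lower and 2 higher, or 2 and 1 on the values as deposited (summed 1880 to 2186 and 772 to 872), and of 8 fibroblast markers 4, with 3 lower and 1 higher (18532 to 23513 and 7479 to 10408). Their part in the changes of the 10 genes was not tested. Fewer cells of a type and less RNA per cell cannot be told apart in these bulk samples.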

How the data were processed

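The deposited value table holds a linear intensity per probe. What background correction and scaling the authors applied is not stated. Per the file headers, the sheet of 9800 called probes adds a detection p-value, a mean normalized intensity and a coefficient of variation per group, and a log2 ratio; deposited term sheets add numbers of genes and q-values. Aligning the sheet's unnamed groups with the arrays, G1 means lay within 5% of the AAPH means for 99.9% of probes (0.571% of the berberine means), so G1 was taken for AAPH alone. G3 matched AAPH with berberine in the same way (99.2%). Scanner, software and build: not given in the sources used here.

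Values below 1 were set to 1 before taking log2, and arrays were quantile-normalized. The groups were compared across the 26423 probes with limma 3.58.1 (R 4.3.3; lmFit, eBayes), 2-sided, with Benjamini-Hochberg adjustment over all probes and a limit of 0.05. The fit was also run on simulated arrays in which few probes changed, balanced in sign. Here 62.7% of probes were called, so that run does not test the normalization in a setting like these arrays. A gene with several named probes was represented by its brightest. With 2 arrays per group an exact permutation test cannot go below 0.333, and the number of arrays limits the precision. The 10 genes and the lists were chosen with earlier results of these data known. Per list, up to 3 genes in each direction with the smallest p-value were named. Genes named for lacking a probe or for disagreeing probes, and Prdx1, Prdx2 and Prdx4, were chosen after their values were seen. List symbols were matched to the sheet's symbol or, by Entrez identifier, to the current one (9121 probes found in the GRCm38.p6 table). Of columns with per-sample values, 0 lacked a sample. Alternatives covered normalization, an offset of 50, a floor of 16, dim-probe filters, the variance model, leaving out each array, the replicate number as a block, and the probe used.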

Additional observations from a re-analysis of the deposited data

How the results depend on the processing

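Of the 10 genes, 9 kept direction and call under every alternative that gave them a value, with log2 changes of −10.29 to −9.25 for Gpx4, −3.56 to −2.77 for Nfe2l2, −2.65 to −1.92 for Hmox1 and −5.61 to −4.58 for G6pdx. For Gclc, Mgst1 and Prdx3 the range reached the bounds of −4.13, −4.30 and −3.73. The bounds were not fitted anew and keep the call of the main fit. Alternatives in the probe used could not change these 10 genes, since each had 1 named probe. Fth1 reversed to 0.31 with median centring and lost its call as deposited; the cause was not tested. The number of the 10 called lower was 5 without genes not detected in a group and 6 with only probes of mean log2 of at least 9, since those filters remove genes by their low berberine signal, and 9 to 10 when single arrays were left out. With the first of these filters 36 list genes instead of 56 were called lower. Over all probes 16578 were called, 10635 higher and 5943 lower. As deposited 8770 were called, 3534 higher and 5236 lower, and with only probes of mean log2 of at least 9 there were 9377, 5828 higher and 3549 lower, from fewer probes tested. Leaving out single arrays gave 11555 to 15508 calls in all, 7110 to 9516 higher and 4445 to 5992 lower, 51 to 56 list genes lower and 44 to 46 higher. The replicate numbers are shared by the titles only: deviations of same-numbered arrays had a correlation of −0.049 over 16633 probes. With the replicate number as a block 15558 probes were called, and 10 of the 10 genes stayed lower. No file names a slide or scan, so that block was not run. Signal over background limits the 5 undetected genes to bounds.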
